A study of Homo sapiens with 35 samples.

Results

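The replication-dependent histone genes supply the histones that package newly copied DNA. They were taken here as the protein-coding genes with the symbols H1-1 to H1-6 or with H2AC, H2BC, H3C or H4C followed by a number (H2BC12L included), which gave 70 genes of 19974 protein-coding genes on chromosomes 1 to 22 and X. By class these are 17 H2A, 19 H2B, 13 H3, 15 H4 and 6 H1 genes. On chromosome 6 lie 55 of them and on chromosome 1 lie 13, with H4C16 alone on chromosome 12 and H2BC12L alone on chromosome 21. The symbol rule also admits genes whose known use is narrower than the label, such as the testis genes H2AC1, H2BC1 and H1-6.

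Open chromatin was measured by ATAC-seq, in which a transposase cuts accessible DNA and tags it for sequencing, in blood progenitors that were grown from H1 cells, a widely used human embryonic stem cell line. The labels give 12 libraries of doxycycline-treated doxee17 cells (batch 1), 11 of untreated doxee17 cells (batch 1) and 12 of untreated H1 cells (batch 2), collected on days 10, 12, 14, 16, 18 and 20, and the series is about ectopic MYC switched on by doxycycline. The labels do not say how doxee17 was made or whether it is a clone. The series' design text counts 44 libraries, more than the 35 described here, and which of them entered the pool is not given. The data used here are a single list of 308732 peaks that names no library, so treated and untreated cells could not be compared, replicate error cannot be given, and what follows describes 1 peak set. As a check of the labelled cell type, 8 of 8 blood progenitor genes (RUNX1, SPI1, TAL1, GATA2, MYB, CD34, PTPRC and KIT) had a peak, with highest folds from 37.9 to 113. That is a weak check, since 92.6% of all coding genes had a peak.

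Histone proteins form the spool of the nucleosome from H2A, H2B, H3 and H4, and H1 binds the linker DNA. The replication-dependent genes are short and without introns in their usual form, are transcribed mainly in S phase and end their messages in a stem-loop in place of a poly(A) tail. They lie in clusters that gather at histone locus bodies, where the factor NPAT drives their transcription. Many H2A and H2B genes stand head to head and share the DNA between their starts.

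Each gene was given the highest fold enrichment of any peak that touched it or lay within 1 kb of its ends, where fold is the authors' own ratio, given per peak, of the signal at the summit, the highest point of a peak, to the background. A gene without a peak counted as 0. Of the 70 histone genes, 64 (91.4%, exact Clopper-Pearson 95% interval 82.3 to 96.8%) had a peak, against 92.6% of all coding genes, so the share with a peak was near the background. It stayed near with no window (91.4% against 91.5% of all coding genes) and with a window of 2.5 kb (94.3% against 93.7%). The same held with the more significant 50% of the peaks (90.0% against 89.3%). Under some other rules it was not near. With summits only, 77.1% of the histone genes and 91.9% of all coding genes had a peak. With a peak over at least 50% of the gene, the shares were 84.3% and 6.01%. The 50% contrast depends on gene length, since 1 peak covers 50% of a short gene more easily. Median length was 494 bp for histone genes and 24170.5 bp for all coding genes. By the main rule, peak height differed more. The median was 122.5-fold (quartiles 95.3 and 163) for the histone genes and 67.4-fold (quartiles 19.8 and 125) for all coding genes, and 50 of the 70 (71.4%) exceeded 100-fold, against 35.1% of all coding genes. With each peak counted only for the gene of longest overlap, 33 of the 70 had a peak and their median was 0, against 52.9-fold for all coding genes. Above the median of all coding genes stood 59 of the 70 histone genes, against 50% by construction. These genes are short (median 494 bp), and a short gene touches fewer peaks than a long one. Among the 461 other coding genes under 1 kb, 35.6% had a peak, 6.72% exceeded 100-fold and the median was 0. They are not a match in other respects: their median length was 839 bp. Of the 344 with an annotated start, 19.8% had it under a peak, against 80.3% of all coding genes. The set is not at the top of the genome: 1399 coding genes had a higher fold than H2AC11 and H2BC11, the highest members.

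The 64 genes did not have 64 separate values, because their highest peaks were only 35 in number. Of these peaks, 21 held 2 to 5 histone genes each and 50 genes in all, and 14 held 1 gene each. The peaks were wide. Of the 70 genes, 56 lay wholly inside a single peak (against 2.46% of all coding genes and 12.4% of other coding genes under 1 kb), and 38 had a highest peak of at least 5 kb (54.3%, against 5.9% of all coding genes and 2.39% of the other short ones). The 35 peaks had a median width of 4669 bp. Of them 42.9% reached 5 kb. Top peaks of other coding genes with a height between the quartiles of these 35 had a median width of 2257 bp, and 8.49% reached 5 kb. The width went with the number of genes held: peaks with 2 or more histone genes had a median of 6145 bp, and peaks with 1 had a median of 3210 bp and reached 4933 bp at most. This relation is partly built in, since a wider peak touches more genes. In clusters with 5 or more histone genes, neighbouring genes began 2.38 to 5.25 kb apart in the median. A gene in a shared peak has no height of its own. For 54 genes the summit of some peak lay within the gene or 1 kb of it, and for 10 it did not; with only the summits counted, the median over all 70 was 111-fold, against 63.4-fold over all coding genes.

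**Figure D1:**
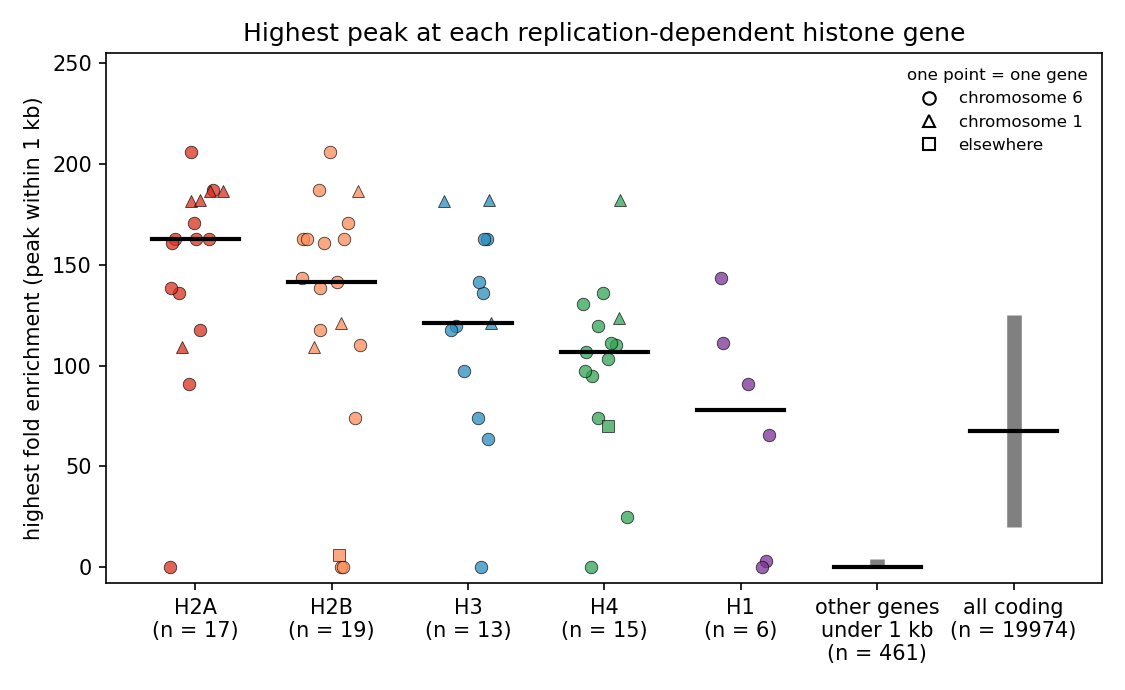
Highest fold enrichment of a peak within 1 kb of each histone gene (y axis, linear), by class, with circles for chromosome 6, triangles for chromosome 1 and squares elsewhere; black lines are medians, and grey bars on the right are quartiles of other coding genes under 1 kb and of all coding genes. Class medians run from 163-fold for H2A to 78.1-fold for H1, above the 67.4-fold of all coding genes, which 3 of the 6 H1 genes exceed. Over all classes, 6 genes lie at 0.

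**Figure D2:**
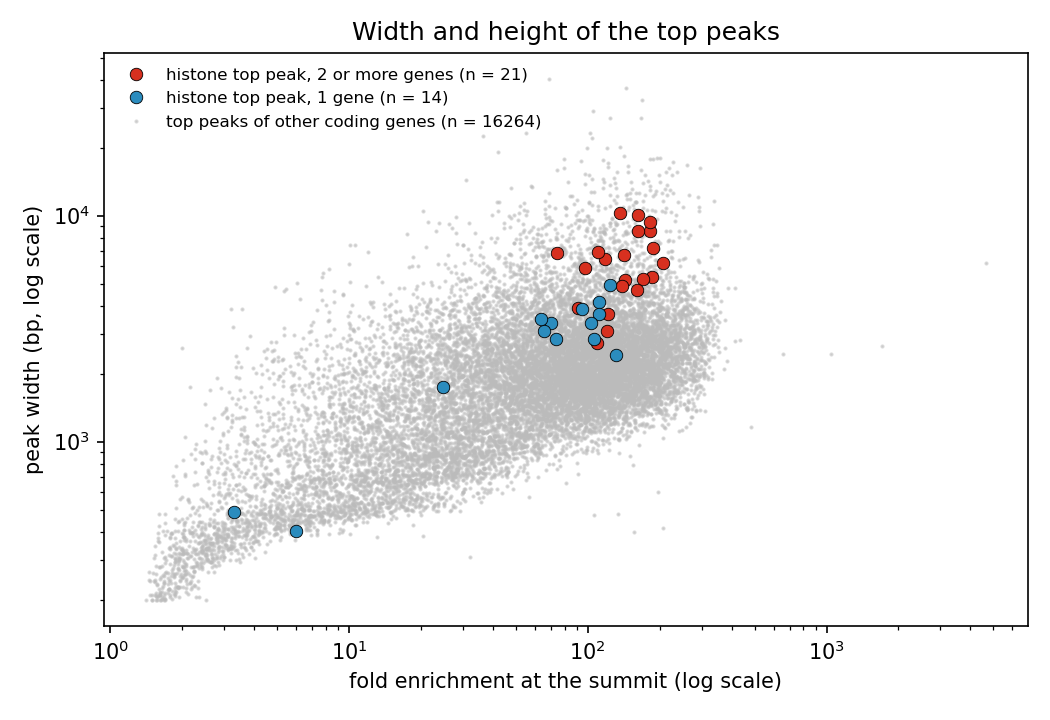
Width (y axis, bp, log scale) against fold enrichment (x axis, log scale) of the 35 distinct highest peaks of histone genes, red where they hold 2 or more histone genes and blue where they hold 1, over the 16264 highest peaks of other coding genes in grey. The red points lie between 2728 and 10233 bp, and the 2 low blue points belong to H2BC12L and H1-1.

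H2A genes, whose protein pairs with H2B in a dimer, were the highest class in all settings but the count by longest overlap, with a median of 163-fold (quartiles 136 and 182), and 15 of 17 exceeded 100-fold. H2B genes followed with a median of 141-fold (quartiles 109.6 and 163), and 15 of 19 exceeded 100-fold. Starts of both genes were known for 11 head-to-head H2A-H2B pairs, with 193 to 247 bp between the starts. In 10 of the 11 pairs 1 peak covered both starts, at 109 to 206-fold, and in 9 of these the summit lay between the starts. In the tenth, H2AC14 and H2BC14, it lay 6637 bp from the H2AC14 start, in the pair H2BC13 and H2AC13 under the same peak. The highest of all members was the pair H2BC11 and H2AC11 (GRCh38, as for all positions here, chromosome 6, 27132316 to 27132795 and 27133043 to 27133535, 480 and 493 bp, on opposite strands). A single peak of 6145 bp (27129018 to 27135162) reached 206-fold there (95% Poisson interval 203 to 209, counting error of the pooled signal only), with its summit 150 bp upstream of the H2BC11 start and 98 bp upstream of the H2AC11 start. The pair H2BC4 and H2AC6 followed with 187-fold over 7206 bp, and H2BC21 and H2AC20 on chromosome 1 with 187-fold over 5335 bp (intervals 184 to 190 and 184 to 189), so these peaks overlapped in their counting error. The peak of H2BC21 also covered H2AC21, whose start lay 1168 bp from the summit.

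The only pair without a peak was H2AC1 and H2BC1 (chromosome 6, 25726063 to 25726562 and 25726777 to 25727345), which encode H2A and H2B forms known from testis. The nearest peaks lay 5.01 kb from H2AC1 (28.1-fold) and 5.18 kb from H2BC1 (2.16-fold). The DNA between the starts is shown for the highest pair and for the pair without a peak, because both hold the same kinds of short promoter motif. Sequences are from RefSeq on GRCh38.p14, on the plus strand, 5′ to 3′, at chr6:27132796-27133042 and chr6:25726563-25726776, and capitals mark the TATA box letters TATAAA, the NF-Y box letters CCAAT and the octamer letters TTTGCAT on either strand.
H2BC11/H2AC11: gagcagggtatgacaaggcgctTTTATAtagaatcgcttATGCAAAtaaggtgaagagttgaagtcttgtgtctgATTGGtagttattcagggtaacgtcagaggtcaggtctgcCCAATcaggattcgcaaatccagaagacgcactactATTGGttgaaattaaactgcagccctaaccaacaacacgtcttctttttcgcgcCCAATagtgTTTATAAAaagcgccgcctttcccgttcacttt
H2AC1/H2BC1: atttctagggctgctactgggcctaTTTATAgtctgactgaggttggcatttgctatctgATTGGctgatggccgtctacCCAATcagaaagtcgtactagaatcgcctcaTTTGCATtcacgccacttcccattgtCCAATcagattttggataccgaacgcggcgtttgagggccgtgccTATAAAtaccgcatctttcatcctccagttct
Each of them has TATAAA near both ends, CCAAT in both orientations and TTTGCAT, the core of the octamer that POU2F1 binds at H2B promoters. These pairs were shown because they share these letters, so they cannot say whether the letters go with a peak, which was not tested.

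The lowest other H2A gene was H2AC16 at 90.9-fold, in a peak whose summit lay at the H1-5 gene, 2187 bp from the H2AC16 start. Among H2B genes, H2BC3 had no peak and H2BC12L (chromosome 21, 43565182 to 43565648) had a narrow peak of 404 bp at 6.02-fold. The lowest of the rest was H2BC9 at 74.1-fold. H2BC3 (chromosome 6, 26043227 to 26043713) lay 6.81 kb from the nearest peak, which was 2.49-fold, and 7.84 kb from a 136-fold peak. Of the 70 annotated spans, 8 are 1 kb or longer, and such a span can touch more peaks. H2BC18 has the longest, at 29.7 kb with 10 peaks, and its 121-fold peak lay over its start.

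H3 genes had a median of 121-fold (quartiles 97.1 and 163), and 9 of 13 exceeded 100-fold. The highest were H3C15 and H3C14 on chromosome 1 at 182-fold each and H3C10 and H3C12 on chromosome 6 at 163-fold each. None of these 4 held the summit of its peak. At H3C14, H3C15 and H3C10 the summit lay 1641, 1645 and 1911 bp upstream of the start, next to the start of an H2A gene. In all, 5 of the 12 H3 genes under a peak had no summit within 1 kb, and with summits alone the class median was 63.5-fold, so the place of H3 among the classes rests on shared peaks. H3C2 (chromosome 6, 26031589 to 26032099) did hold its summit, 12 bp upstream of the start, under a peak of 10233 bp and 136-fold (interval 134 to 138) that also covered H4C2 and H2AC4. That was the widest of the 35 peaks. H3C6 was the lowest H3 gene with a peak, at 63.5-fold. H3C3 (chromosome 6, 26045384 to 26045869) had none: the nearest lay 5.91 kb away at 1.78-fold. H2BC3 and H3C3 are neighbours, and the nearest peaks above 100-fold on either side of them were those of H3C2 (136-fold) and H1-2 (111-fold).

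H4 genes had a median of 107-fold (quartiles 84.3 and 122), and 9 of 15 exceeded 100-fold. Their peaks were narrower (median width 3515 bp) than those at H2A (6296 bp), H2B (6145 bp) and H3 genes (6759 bp), and 4 of 15 reached 5 kb. At 10 of the 12 H4 starts under a peak the summit lay within 100 bp of the start, as at H4C11 (67 bp inside, 111-fold) and H4C12 (67 bp inside, 107-fold). H4C15 had the highest value by the rule, 182-fold, but its annotated span of 16753 bp runs over H2AC19 and H3C15, and the peak over its own start reached 125-fold. H4C2 (136-fold) shared the peak of H3C2, and H4C3 (131-fold, 2427 bp) stood alone. H4C16 on chromosome 12 (14770720 to 14771131) reached 70.2-fold, with its summit 81 bp inside the gene. H4C6 was low at 24.7-fold, and H4C7 (chromosome 6, 26246611 to 26246996), which encodes a divergent H4 protein, had no peak; the nearest lay 1110 bp away at 1.68-fold.

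H1 genes were the lowest class by the main rule, with a median of 78.1-fold over 6 genes that ranged from 0 to 143-fold. Of the 6, 2 (33.3%) exceeded 100-fold, near the 35.1% of all coding genes, and 3 stood above the median of all coding genes. H1-4 reached 143-fold, H1-2 111-fold, H1-5 90.9-fold, H1-3 65.3-fold and H1-1 3.31-fold (interval 2.96 to 3.70), while H1-6 had no peak. The H1-4 value belongs to a peak with its summit 1730 bp downstream of the H1-4 start, at the start of H2BC5. At the other 4 H1 genes with a peak the summit lay inside the gene, 45 to 87 bp from the start. H1-1 (chromosome 6, 26017032 to 26017787) encodes a linker histone known from few cell types, and its peak was 488 bp wide. With a window of 2.5 kb H1-1 took the 119.8-fold peak of H3C1, and with the more significant 50% of the peaks it had none. H1-6 (26107412 to 26108135), the testis linker histone, lay 1.73 kb from the 131-fold peak of H4C3 and 1.61 kb from its nearest peak, which was 3.85-fold. With the 2.5 kb window H1-6 took that 131-fold peak, H4C7 the 74.1-fold peak of H3C7 and H2BC9, and H4C16 a 134-fold peak.

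The next sequences set 1 gene under a strong peak beside 1 without a peak for H1, H3 and H4. Each is the 150 bases before the start, 5′ to 3′ on the gene's own strand, from RefSeq on GRCh38.p14, with capitals for the same letters and for the H1 box AAACACA on either strand. They lie at chr6:26056471-26056620 (H1-2, minus), chr6:26108136-26108285 (H1-6, minus), chr6:26032100-26032249 (H3C2, minus), chr6:26045234-26045383 (H3C3, plus), chr6:27823942-27824091 (H4C11, plus) and chr6:26246997-26247146 (H4C7, minus).
H1-2: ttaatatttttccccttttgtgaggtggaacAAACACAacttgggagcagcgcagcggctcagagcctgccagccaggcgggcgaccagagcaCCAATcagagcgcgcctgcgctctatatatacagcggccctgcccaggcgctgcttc
H1-6: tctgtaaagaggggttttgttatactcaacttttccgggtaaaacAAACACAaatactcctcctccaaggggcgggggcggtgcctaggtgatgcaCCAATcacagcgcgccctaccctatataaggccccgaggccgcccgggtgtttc
H3C2: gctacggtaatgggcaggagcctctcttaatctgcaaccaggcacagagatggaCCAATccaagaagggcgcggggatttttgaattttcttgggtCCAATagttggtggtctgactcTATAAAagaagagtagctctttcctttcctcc
H3C3: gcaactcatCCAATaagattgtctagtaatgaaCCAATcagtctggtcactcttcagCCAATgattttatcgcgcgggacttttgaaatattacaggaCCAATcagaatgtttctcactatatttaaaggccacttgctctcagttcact
H4C11: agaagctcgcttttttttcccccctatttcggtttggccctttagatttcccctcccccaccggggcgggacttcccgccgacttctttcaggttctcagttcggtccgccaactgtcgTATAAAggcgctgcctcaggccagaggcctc
H4C7: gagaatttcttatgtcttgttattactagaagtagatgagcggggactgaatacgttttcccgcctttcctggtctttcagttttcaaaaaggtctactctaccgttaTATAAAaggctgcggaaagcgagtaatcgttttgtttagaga
H1-2 (111-fold) and H1-6 (no peak) both carry the H1 box AAACACA and a CCAAT box. H3C2 (136-fold) has TATAAA and CCAAT, and H3C3 (no peak) has CCAAT alone of these letters. H3C8 likewise has CCAAT alone of them before its start. Its 141-fold peak is shared with H2BC10, and the summit lay 1521 bp upstream of H3C8 and 3 bp from the H2BC10 start. H4C11 (111-fold) and H4C7 (no peak) each have TATAAA.

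**Figure D3:**
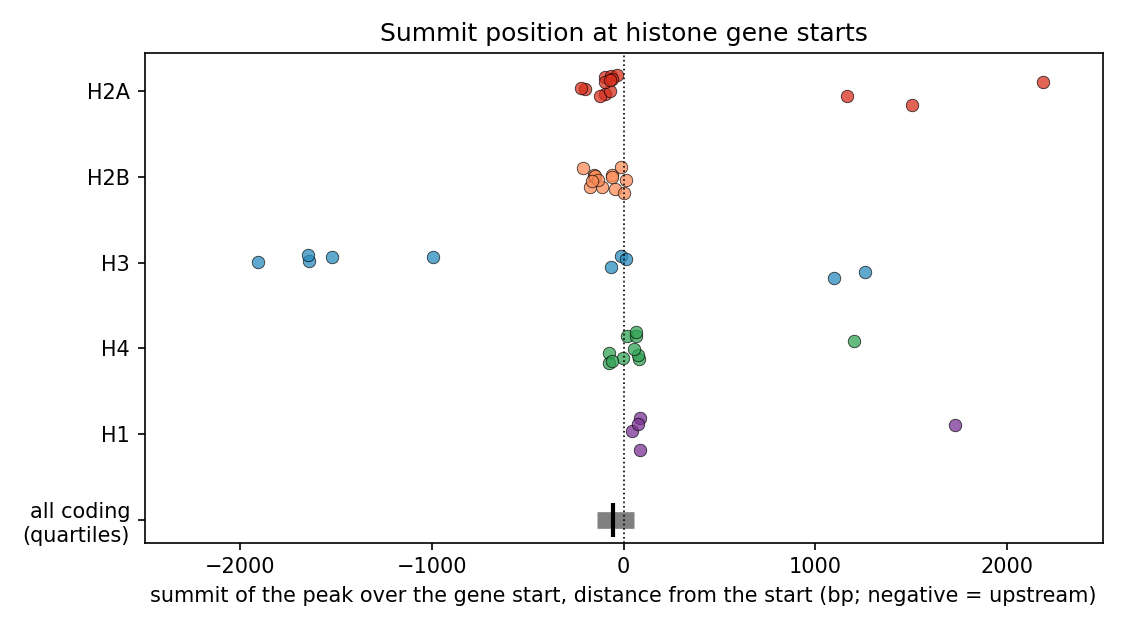
Distance in bp from the annotated start of each histone gene to the summit of the peak over that start (x axis, negative upstream), by class, with the quartiles and median of all coding genes as a grey bar and black mark. H2A and H2B summits lie mostly upstream and most H1 and H4 summits lie near the start or just inside the gene; 4 genes with summits more than 2500 bp away (H2BC6, H4C2, H2AC14 and H2BC14) are outside the axis.

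The place of the summit differed between classes. Of 64 histone genes with an annotated start in the promoter table, 58 (90.6%) had that start under a peak, against 80.3% of the 15813 coding genes in the table. The median summit lay 61.5 bp upstream of the start in histone genes and 57.0 bp upstream in all coding genes. At H2A genes the median was 73.0 bp upstream and at H2B genes 125 bp upstream. At H4 genes it was 35.0 bp and at H1 genes 84.0 bp inside the gene. At H3 genes the median was 530.5 bp upstream, and only 3 of 10 summits lay within 250 bp, against 14 of 16 at H2B genes. Among these H3 genes, the start used for H3C4 is also that of H2AC7, and the other annotated start of H3C4 lay 2074 bp from the summit.

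Promoter letters were counted in 68 RefSeq entries of 64 histone genes, each 250 bases before and 50 after a start, on both strands, beside 22156 entries of 15813 coding genes. There was no entry for H2BC12L, H4C1, H4C3, H2AC12, H3C11 and H3C12. TATAAA, the core of the TATA box, was found in 66.2% of histone entries and 9.47% of all entries. CCAAT, bound by NF-Y, was found in 85.3% of histone entries and 34.6% of all. It was in every entry of H2A, H2B, H3 and H1 genes but in 3 of 13 H4 entries. TTTGCAT was found in 15 of 20 H2B entries and in 11 of 16 H2A entries, many of which share DNA with an H2B gene. It was in 1 of 13 H3 entries and in no H4 or H1 entry, against 3.83% of all entries. That H3 entry, at the outermost start of H3C4, has the same sequence as the H2AC7 entry. The H1 box AAACACA was found in 6 of 6 H1 entries and in 3 of the other histone entries, against 4.42% of all entries. CACGTG, the E box that MYC with MAX binds, was in none of the 68 histone entries and in 8.34% of all entries; this says only that these letters are not in these windows. No match of 1 motif overlapped a match of another in the histone entries. Among the 6 genes without a peak, TATAAA was in 4 of 6 entries, CCAAT in 5, TTTGCAT in 3 and AAACACA in 1. Among the genes with a peak, TATAAA was in 41 of 62 entries, CCAAT in 53, TTTGCAT in 24 and AAACACA in 8.

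**Figure D4:**
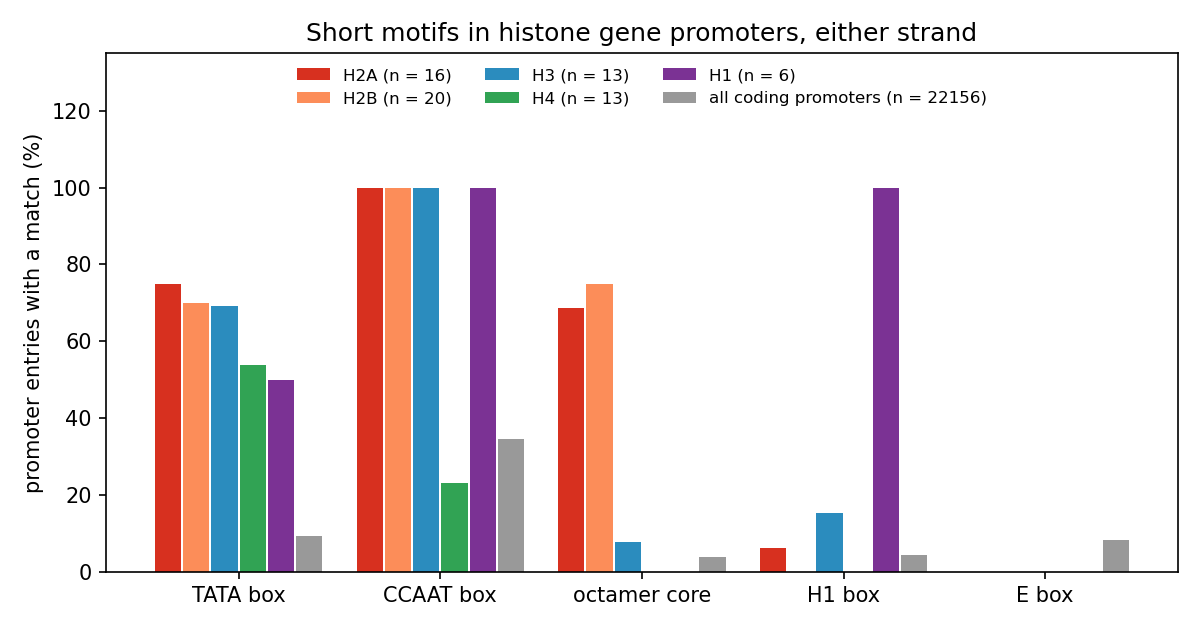
Share of promoter entries (y axis, %) with at least 1 match to each of 5 motifs on either strand, by histone class and, in grey, in all coding promoters, with the number of entries in the legend. The octamer core is found in most H2A and H2B entries, the H1 box in every H1 entry and the E box in no histone entry.

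By place, genes no more than 500 kb apart formed 5 clusters that hold 68 of the 70 genes. The cluster of 11 genes on chromosome 1 (149782689 to 149887965) had the highest median, 182-fold, and its lowest gene stood at 121-fold. The small cluster of 5 genes on chromosome 6 (27132316 to 27147562) had a median of 171-fold, and the 16 genes farther along (27807479 to 27893891) had 162-fold, with a lowest value of 90.9-fold. The 34 genes of the first cluster on chromosome 6 (25726063 to 26285534) had 115-fold and ranged from 0 to 187-fold. All 6 genes without a peak, and H1-1, belong to that cluster. H2AC25 and H2BC26, the separate pair on chromosome 1 (228457364 to 228458558), shared a 109-fold peak. Within classes, H2A genes had a median of 182-fold over 5 genes on chromosome 1 and 162-fold over 12 on chromosome 6, and H2B genes 121-fold over 3 and 143-fold over 15. H3 genes had 182-fold over 3 on chromosome 1 and 119-fold over 10 on chromosome 6. That H3 order rests on the mirrored copies H3C14 and H3C15: without them H3C13 alone stood at 121-fold, and with summits only the order turned, at 0 on chromosome 1 and 68.8-fold on chromosome 6. H4 genes had 153-fold over 2 on chromosome 1 and 105-fold over 12 on chromosome 6, and by the peak over the start 125-fold over 2 and 100.2-fold over 10. With each peak counted only for the gene of longest overlap, H2A stood at 0 on both chromosomes, H2B at 121-fold on chromosome 1 and 0 on chromosome 6, and H3 at 0 and 68.8-fold.

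Strong peaks inside the clusters lay almost entirely at histone genes or within 1 kb of them. Of the 27 peaks above 100-fold that touched the 5 clusters, 26 lay there, and the exception was a 159-fold peak at TRIM38. The 26 include a 132-fold peak (26171430 to 26174083) just beyond the far end of H2BC5, whose annotated span is 13229 bp. Of peaks of any height, 25 of 113 lay at histone genes in the first chromosome 6 cluster. It was 6 of 8 in the cluster of 5 genes and 8 of 21 in that of 16. On chromosome 1 it was 16 of 25 in the larger cluster and 1 of 1 at the separate pair. In the first chromosome 6 cluster peaks covered 63.2% of the histone windows (the genes and 1 kb beyond) and 15.9% of the rest; in the cluster of 5 genes they covered 94.2% and 58.7%, in the cluster of 16 genes 96.5% and 33.0%, and in the larger chromosome 1 cluster 61.5% and 32.6%. The 88 peaks of the first cluster away from histone genes had a median of 2.91-fold. The 8 other coding genes inside the clusters all had a peak, with a median of 20.4-fold.

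**Figure D5:**
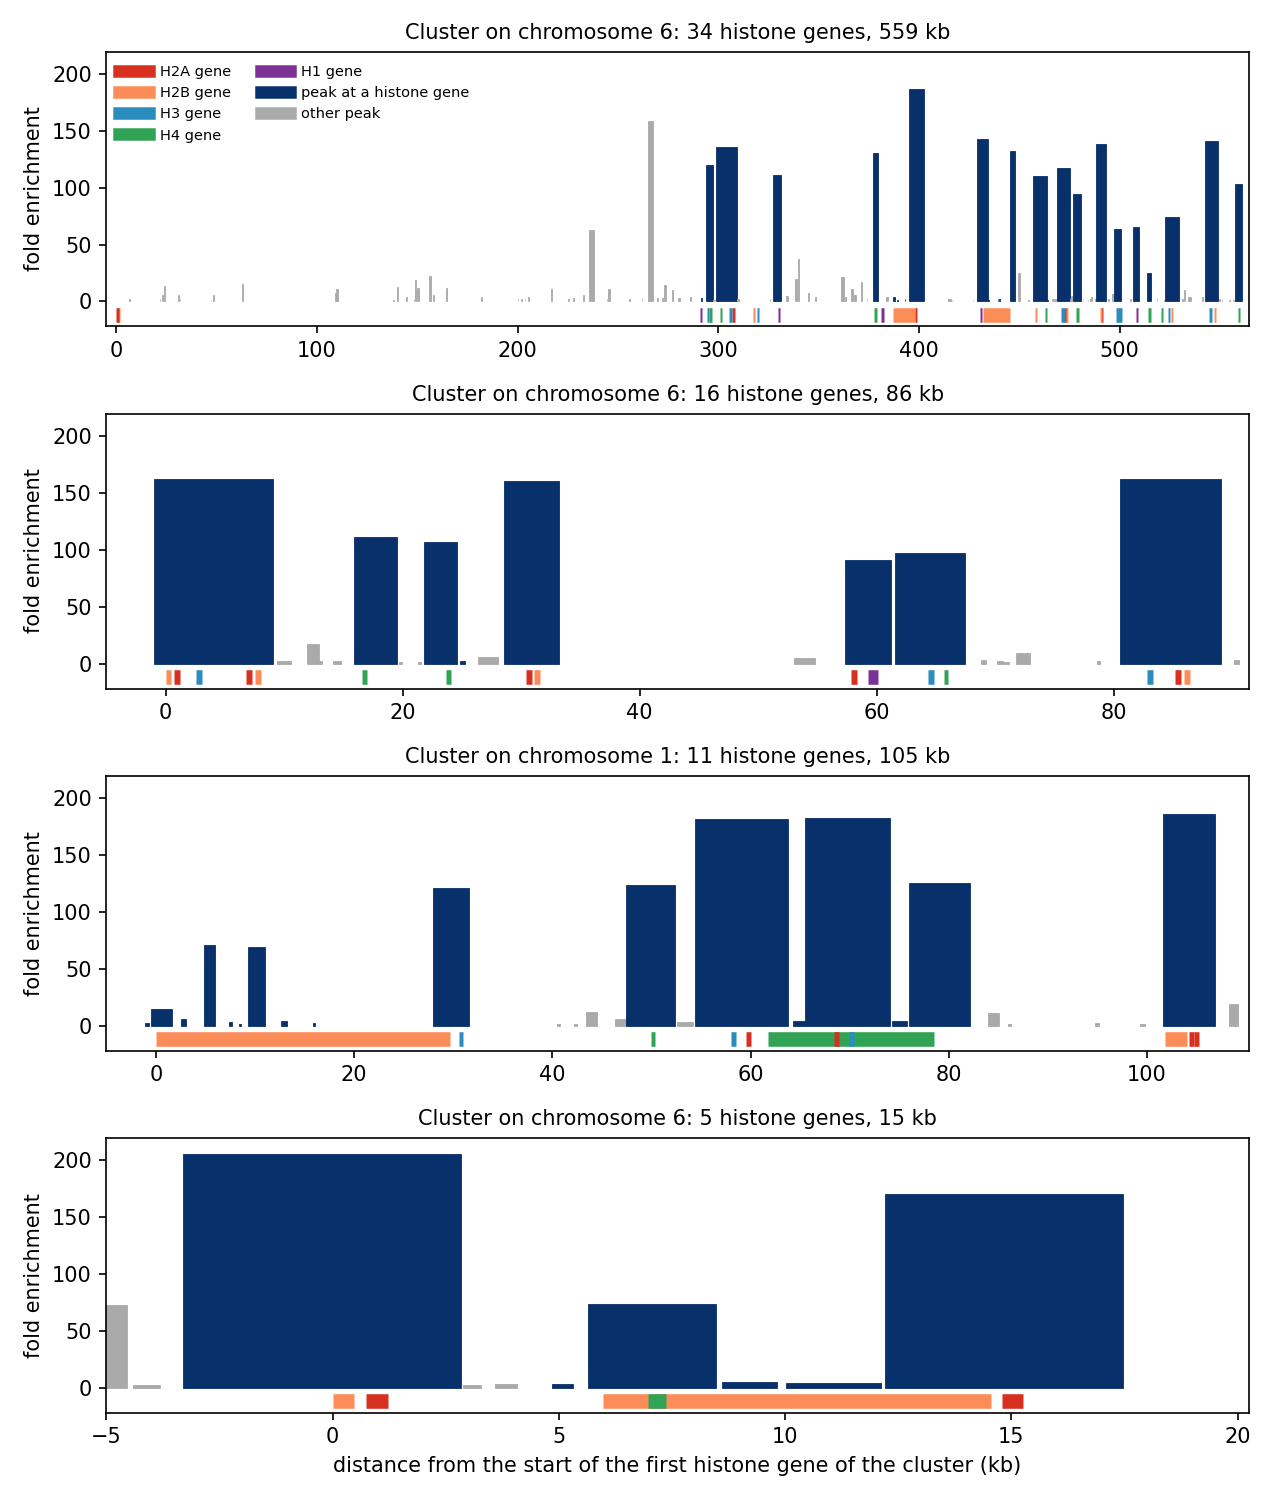
Peaks of the 4 clusters with 5 or more histone genes, drawn from their start to their end (x axis, kb from the start of the first histone gene) with the fold enrichment at the summit as height (y axis); blue peaks touch a histone gene or the 1 kb beyond it, grey peaks do not, and bars under the axis are the genes, coloured by class. The left part of the top panel holds H2AC1 and H2BC1 and no strong peak at a histone gene.

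A mirrored stretch of the chromosome 1 cluster holds copies of the same DNA. The promoter entries of H4C14 and H4C15 were identical over 300 of 300 bases. Those of H2AC18 and H2AC19 were identical over 299 of 299 aligned bases, and those of H3C14 and H3C15 over 296 of 296. The last 150 bases before the H4C14 start (chr1:149832507-149832656, plus strand), which are the same before H4C15 (chr1:149861160-149861309, minus strand), hold none of the searched motifs.
H4C14: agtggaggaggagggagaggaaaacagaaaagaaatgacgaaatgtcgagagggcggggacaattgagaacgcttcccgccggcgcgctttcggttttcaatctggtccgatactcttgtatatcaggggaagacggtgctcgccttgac
The peaks over the copies were alike. H4C14 stood at 124-fold (interval 122 to 126) and the start of H4C15 at 125-fold (interval 123 to 128), each with the summit 74 bp upstream. H2AC18 stood at 181.6-fold with its summit 99 bp upstream and H2AC19 at 182-fold with its summit 98 bp upstream. Reads from identical copies cannot be told apart, and how the aligner placed them is not given in the sources used here, so these values do not measure each copy on its own. RefSeq gives H3C4 and H2AC7 the same outermost start, so their value of 118-fold is likewise shared.

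The 15 histone pseudogenes, remnants of the same family, had a median of 65.3-fold. Of them 6 (40.0%) exceeded 100-fold, near the 35.1% of all coding genes. For 8 of the 15 the highest peak was also that of a histone gene, so their median of 140.0-fold follows from the grouping. The other 7 had a median of 2.16-fold and a maximum of 47.2-fold at H3C9P. H2AC5P, between H2BC3 and H3C3, had no peak. The 22 genes listed as replacement histones, a kind of histone also made outside S phase, had a median of 36.1-fold. Whether each listed gene is made outside S phase was not tested. Of the 22, 17 had a peak. H2AZ2 (278-fold), CENPA of the centromere (228) and H2AX of the DNA damage response (219) were the highest, and H3-4, H3Y1, H3-5, H1-7 and H2BW1 had none. Of this list 7 exceeded 100-fold (31.8%, near the 35.1% of all coding genes).

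Of 22 genes that transcribe and process histone messages, 22 had a peak, near the 92.6% of all coding genes, and 17 (77.3%) exceeded 100-fold, against 35.1% of all coding genes (median 163-fold). CDK2, the kinase that phosphorylates NPAT, stood at 384-fold, NPAT at 261-fold and the NF-Y subunit NFYA at 259-fold. SLBP, which binds the histone stem-loop, reached 203-fold and HINFP, a factor of H4 promoters, 219-fold, while CSTF2T (78.9-fold) and CSTF2 (71.3-fold) were lowest. Of 22 histone chaperones and deposition factors, 18 (81.8%) exceeded 100-fold, against the same 35.1% (median 152-fold). ASF1B, an H3-H4 chaperone, stood at 314-fold, the H3.3 chaperone DAXX at 224-fold and ASF1A at 212-fold, with CHAF1B (76.9-fold) and ATRX (37.8-fold) lowest. CDK2 and DAXX had no annotated start here, so whether their highest peaks lay over their starts is not known. A highest peak of 5 kb or more stood at 38 of the 70 histone genes, at 4 of the 22 replacement histones, at 4 of the 8 blood progenitor genes and at no gene of these 2 lists, so wide peaks were not particular to the histone genes. Wholly inside 1 peak lay 56 of the 70 histone genes, 3 replacement histones, 2 blood progenitor genes and no gene of these 2 lists, whose genes are far longer in the median.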

How the data were processed

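Each ATAC-seq library came from 50000 cells whose nuclei were transposed for 45 minutes, and paired reads were 75 nucleotides long, per the labels' protocols. Tools in the submitters' processing notes are Picard 2.2.4, Bowtie2 2.2.8 and Trim Galore 0.6.5, beside the build names hg38 and GRCh38.p13. MACS 2.1.0 and GENCODE 36 appear in the deposited peak names. How libraries were pooled, duplicates treated and multiply mapping reads placed is not given in the sources used here.

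The authors' list gives each peak a position, a summit, a score, a fold (a linear ratio of the summit to the background) and a −log10 p. The deposited score was not used. A single background pileup of 93.5 was estimated from the deposited fold and −log10 p of 5000 peaks under 2.5-fold. It gave each summit's pileup and exact Poisson 95% interval, assuming that the same background holds at strong peaks. The intervals cover counting error only, and the depth per library is unknown.

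Genes came from RefSeq GRCh38.p14 and promoters from its promoter table. A peak counted with at least 1 bp of overlap. The overlap code was tested on simulated data. Members, gene lists and settings were chosen with earlier results of these data known. The comparisons with other coding genes under 1 kb, pseudogenes and blood progenitor genes were added after values were seen. In each class the 3 highest and 2 lowest members are named, with all members outside chromosomes 6 and 1, the mirrored genes, the members with the widest and narrowest peak, and the 3 highest and 2 lowest genes of each list. Others that are named were chosen after their values were seen. Shares and medians are descriptions with no test, since 1 list has no replicates. Python 3.11.15, numpy 2.4.6, pandas 2.3.3, scipy 1.17.1 and matplotlib 3.10.9 were used. Alternatives are given in the closing section.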

Additional observations from a re-analysis of the deposited data

How the results depend on the processing

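No paired analysis was possible because the list names no library, so no replicate enters any value. With no window, a window of 2.5 kb, summits only, a peak over at least 50% of the gene, or the more significant 50% of the peaks, histone genes with a peak numbered 54 to 66 of 70 and their median stayed between 111 and 131-fold. Their share with a peak was 77.1% with summits only (all coding genes 91.9%), 84.3% with 50% cover (6.01%) and 90.0 to 94.3% in the other 3 (89.3 to 93.7%). The contrast with 50% cover depends on gene length. Above the median of all coding genes stood 51 to 62; with 50% cover that median is 0, so the 59 above it are only the 59 with a peak. The exception was counting each peak for the gene with the longest overlap alone: 33 genes (47.1%, all coding genes 90.9%) then had a peak, 29 stood above the median of all coding genes and the median of the 70 was 0, since that rule leaves a shared peak with 1 gene. H4 (94.7-fold) was then the highest class, and H2A, H2B and H3 medians were 0. H2A led in the other settings run, while H3 stood above H2B with 50% cover, H1 above H4 with 2.5 kb, and H3 last with summits only. Alternatives added after the data were seen were the peak over the annotated start (58 of 64 genes, median 122.5-fold) and leaving out the 6 mirrored genes (58 of 64 genes, median 120-fold). Without libraries, neither replicate spread nor differences between treated and untreated cells can be given, and a gene without a peak is only one below the calling threshold of the pooled signal.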
